A study of Mus musculus with 4 samples.

Results

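The 40 interferon-stimulated genes described here are a named list of genes that type I or type II interferon induces in mouse cells, looked up by symbol in a gene expression table of blood monocytes from mice with and without RBP-J. All 40 symbols were found among the 23995 gene symbols of the table, and all 40 had a level of at least 1 FPKM in at least 1 library, as did 10240 symbols in all. FPKM are fragments scaled to the length of the transcript and to the mapped fragments of the library. Their sums differed between the libraries, so that differences between libraries depend on the scaling. RBP-J is the DNA-binding protein through which Notch receptors act on their target genes. The study asked what loss of RBP-J in myeloid cells does to the 2 subsets of blood monocytes, the Ly6Chi subset, which is recruited to inflamed tissue, and the Ly6Clo subset, which patrols the vessel wall.

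Total RNA of sorted Ly6Chi and Ly6Clo blood monocytes was sequenced from control mice, which were Rbpj+/+ Lyz2 cre/cre (titled WT and labelled Lyz2-Cre), and from RBP-J-deficient mice, which were Rbpj fl/fl Lyz2 cre/cre. Both genotypes thus carried the Cre recombinase on both copies of the Lyz2 locus, from which it is made in monocytes, macrophages and neutrophils and not in monocytes alone. The study's methods put its mice at 7 to 12 weeks of age. The 4 groups are 1 library each, and neither the number of mice behind a library nor its read depth is given in the sources used here. No difference in this text therefore has a replicate check, and no test of significance was made. Each list is instead set beside the same measure over the 10240 expressed genes.

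The level of Rbpj itself was 8.30 FPKM in control Ly6Clo, 2.43 in RBP-J-deficient Ly6Clo, 14.4 in control Ly6Chi and 2.85 in RBP-J-deficient Ly6Chi monocytes. Its log2 ratio between genotypes was -1.44 in Ly6Clo cells and lower still in Ly6Chi cells, so both RBP-J-deficient libraries were low for the targeted gene. The monocyte genes Csf1r and Cx3cr1 were at 60.3 FPKM or more in all 4 libraries. The library labelled RBP-J-deficient Ly6Clo stood apart on the genes that mark the subsets. The 6 Ly6Chi markers on the list summed to 74.6 FPKM in control Ly6Clo, 575 in RBP-J-deficient Ly6Clo, 3593 in control Ly6Chi and 2744 in RBP-J-deficient Ly6Chi monocytes, and the 6 Ly6Clo markers to 2411, 1628, 528 and 755 in the same order. Between the Ly6Clo libraries the Ly6Clo markers were not uniform. Cd36 was higher without RBP-J, at 425.6 FPKM in control and 944.7 in RBP-J-deficient cells, and makes up much of the sum of 1628. By contrast, 4 of the 6 were at least 2-fold lower. Ccr2, the chemokine receptor of Ly6Chi cells, was at 59.2 FPKM in control and 473.7 in RBP-J-deficient Ly6Clo cells. It makes up most of the Ly6Chi marker sums of 74.6 and 575. In RBP-J-deficient Ly6Clo cells 5 of the 6 Ly6Chi markers were at least 2-fold higher than in control. Nr4a1, the nuclear receptor on which Ly6Clo cells depend, was at 618 FPKM in control and 65.6 in RBP-J-deficient Ly6Clo cells. By flow cytometry and qPCR over several mice, the study itself reported higher CCR2 in RBP-J-deficient than in control Ly6Clo cells. With the same methods it reported similar Nr4a1 in Ly6Clo cells of both genotypes. The difference in Nr4a1 seen here therefore rests on 1 library per group. In bulk libraries such as these, fewer cells of a type and less RNA per cell cannot be told apart.

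Interferons are secreted proteins that bind receptors on almost every cell. Type I interferons act through IFNAR1 and IFNAR2 and the kinases JAK1 and TYK2 to assemble a complex that holds STAT2 and IRF9 and binds the interferon-stimulated response element, a pair of GAAA blocks set a pair of bases apart, in front of its target genes. The products sense viral nucleic acid, stop translation, degrade RNA, block membrane fusion or modify other proteins, and some of them, such as IRF7 and USP18, feed back on the response. Monocytes make these transcripts without infection, at levels that differ widely between genes, and make more of many of them after it.

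The response element can be seen in the promoters. RefSeq promoters of the mouse assembly GRCm38.p6 (the build also called mm10), running from 250 bases before to 50 bases after each gene's start, were found for 32 of the 40 genes. No entry was used for Mx1, Dhx58, Parp14, Parp9, Zbp1, Rtp4, Usp18 and Oas2. The letters GAAANNGAAA were searched on both strands, with TTTC blocks on the complement, and overlapping matches were kept. They occurred in 18 of the 32 promoters (56.2%), against 3.99% of 27025 promoters of all genes and 4.09% of 7754 promoters of expressed genes. A match lay wholly before the gene's start in 14 of the 18. Stretches of 11 promoters are printed, chosen to set 8 genes that were at least 2-fold lower in control Ly6Clo than in control Ly6Chi cells beside 3 that differed little. Each is written on the gene's own strand, 5′ to 3′, and ends before the gene's start. Capitals mark the match, or the run of overlapping matches, nearest the start, and matches farther away are left in lower case.
Isg15: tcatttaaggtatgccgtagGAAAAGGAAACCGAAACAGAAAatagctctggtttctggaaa
Ifit1: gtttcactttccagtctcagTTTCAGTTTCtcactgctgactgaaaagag
Ifit3: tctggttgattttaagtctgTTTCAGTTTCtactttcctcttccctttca
Oas1a: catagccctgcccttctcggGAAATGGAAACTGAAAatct
Oas3: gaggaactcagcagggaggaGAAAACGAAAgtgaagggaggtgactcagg
Gbp3: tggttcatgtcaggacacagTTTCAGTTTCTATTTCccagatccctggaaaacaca
Stat2: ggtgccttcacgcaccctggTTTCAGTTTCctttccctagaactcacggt
Rsad2: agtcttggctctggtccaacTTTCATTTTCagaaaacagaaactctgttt
Gbp2: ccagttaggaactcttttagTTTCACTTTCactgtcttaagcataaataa
Igtp: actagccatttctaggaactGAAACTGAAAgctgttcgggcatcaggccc
Ifitm2: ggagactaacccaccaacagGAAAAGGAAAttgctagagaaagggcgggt
The Isg15 stretch (chr4:156200855-156200916, gene on the minus strand) holds 3 overlapping matches, more than any other stretch printed here. Ifit1 (chr19:34640784-34640833, plus strand) and Ifit3 (chr19:34583387-34583436, plus strand) both carry TTTCAGTTTC. So do Gbp3 (chr3:142559979-142560034, plus strand), in a run of 2 overlapping matches, and Stat2 (chr10:128270256-128270305, plus strand). Oas1a (chr5:120907526-120907565, minus strand) and Oas3 (chr5:120777705-120777754, minus strand) have 2 overlapping matches and 1 match, and Rsad2 (chr12:26456543-26456592, minus strand) has 1. The 3 genes printed for contrast, Gbp2 (chr3:142620584-142620633, plus strand), Igtp (chr11:58199502-58199551, plus strand) and Ifitm2 (chr7:140955978-140956027, minus strand), have 1 match each. The word GTGGGAA, which RBP-J is known to bind, was found on either strand in 3 of the 32 promoters (9.38%) and in 7.25% of all promoters. A match is a run of letters and not a measured binding site.

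In both genotypes the interferon-stimulated genes were higher in Ly6Chi than in Ly6Clo monocytes. Their median level was 22.2 FPKM in control Ly6Clo, 23.9 in RBP-J-deficient Ly6Clo, 65.6 in control Ly6Chi and 59.0 in RBP-J-deficient Ly6Chi cells. Both Ly6Chi libraries were above both Ly6Clo libraries for 32 of the 40 genes (80%), which was the case for 20.7% of the expressed genes. Only Ifitm2 had the reverse order among the 40 (2.5%), against 21.3% of the expressed genes. The control Ly6Chi library held the highest of the 4 values for 28 of the genes, RBP-J-deficient Ly6Chi for 7, RBP-J-deficient Ly6Clo for 5 and control Ly6Clo for 0.

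**Figure D1:**
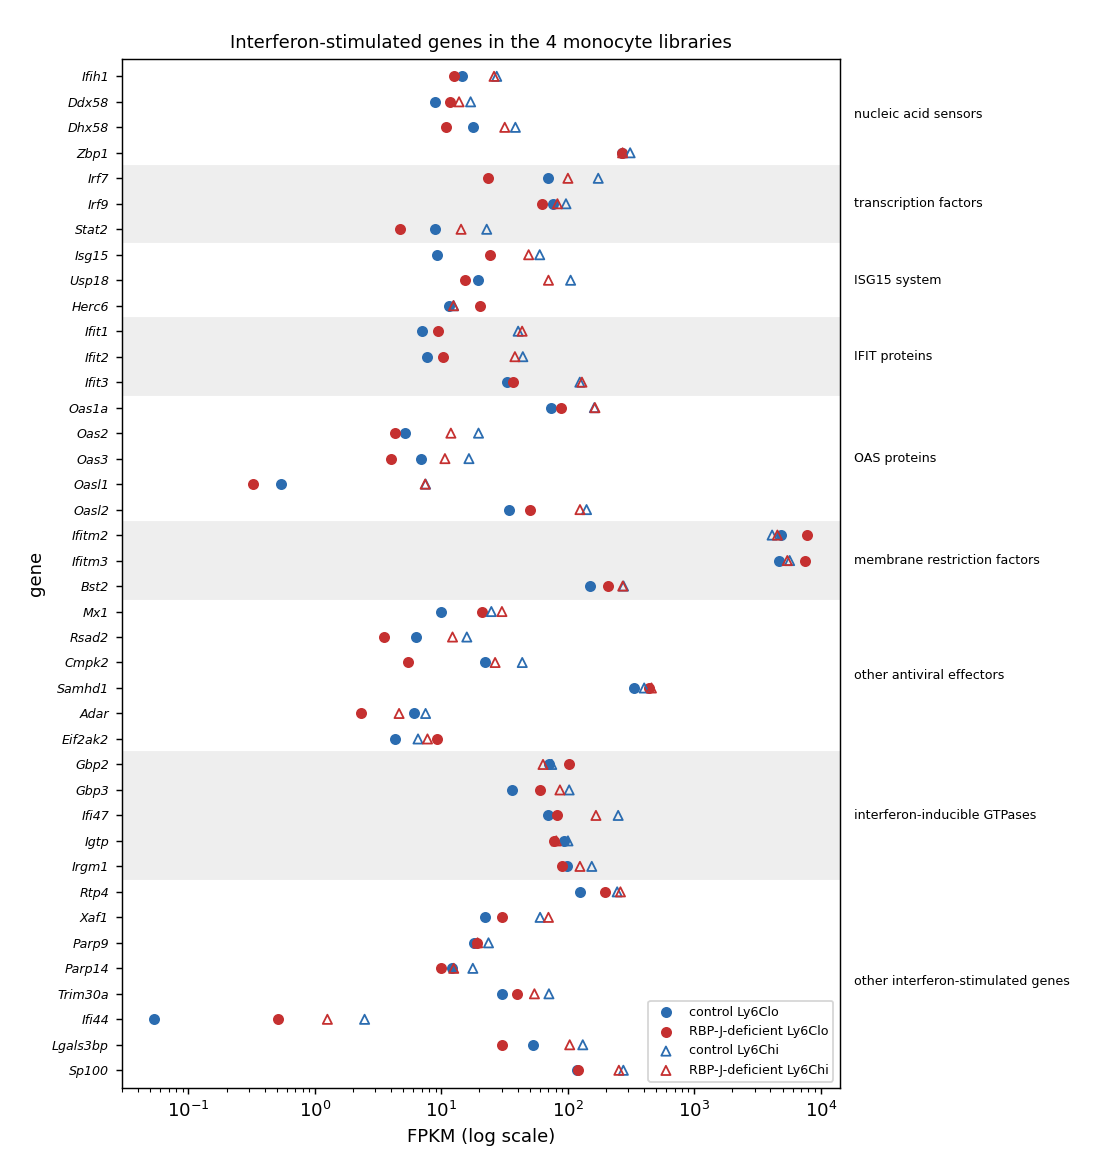
FPKM of the 40 interferon-stimulated genes (log scale) in the 4 libraries, grouped by role, with circles for Ly6Clo, triangles for Ly6Chi, blue for control and red for RBP-J-deficient monocytes. Each point is 1 library. For 32 of the 40 genes both triangles lie to the right of both circles.

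Differences are given as the log2 ratio of (FPKM + 1), which understates the ratio of genes at low levels. Where a gene is called the highest or lowest by such a ratio, this holds for the added 1 FPKM and can change with another pseudocount. Between control Ly6Clo and control Ly6Chi cells the 40 genes had a median log2 ratio of -1.15, with 22 genes at least 2-fold lower in the Ly6Clo library and 0 at least 2-fold higher. Of all expressed genes, 7.75% were at least 2-fold lower and 5.21% at least 2-fold higher, with a median of 0. The RBP-J-deficient pair, which shares no library with the control pair, had a median of -0.82 for the 40 genes, 17 of them at least 2-fold lower and 0 at least 2-fold higher. The background there was 10.6% lower and 8.41% higher, with a median of 0.02. Counted at any size, 39 of the 40 genes were lower in Ly6Clo than in Ly6Chi cells in control mice (49.8% of expressed genes) and 35 in RBP-J-deficient mice (48.8%). With genes under a mean of 10 FPKM left out, 18 of 34 were at least 2-fold lower in the control pair (background 6.45%) and 14 of 34 in the RBP-J-deficient pair (9.24%).

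**Figure D2:**
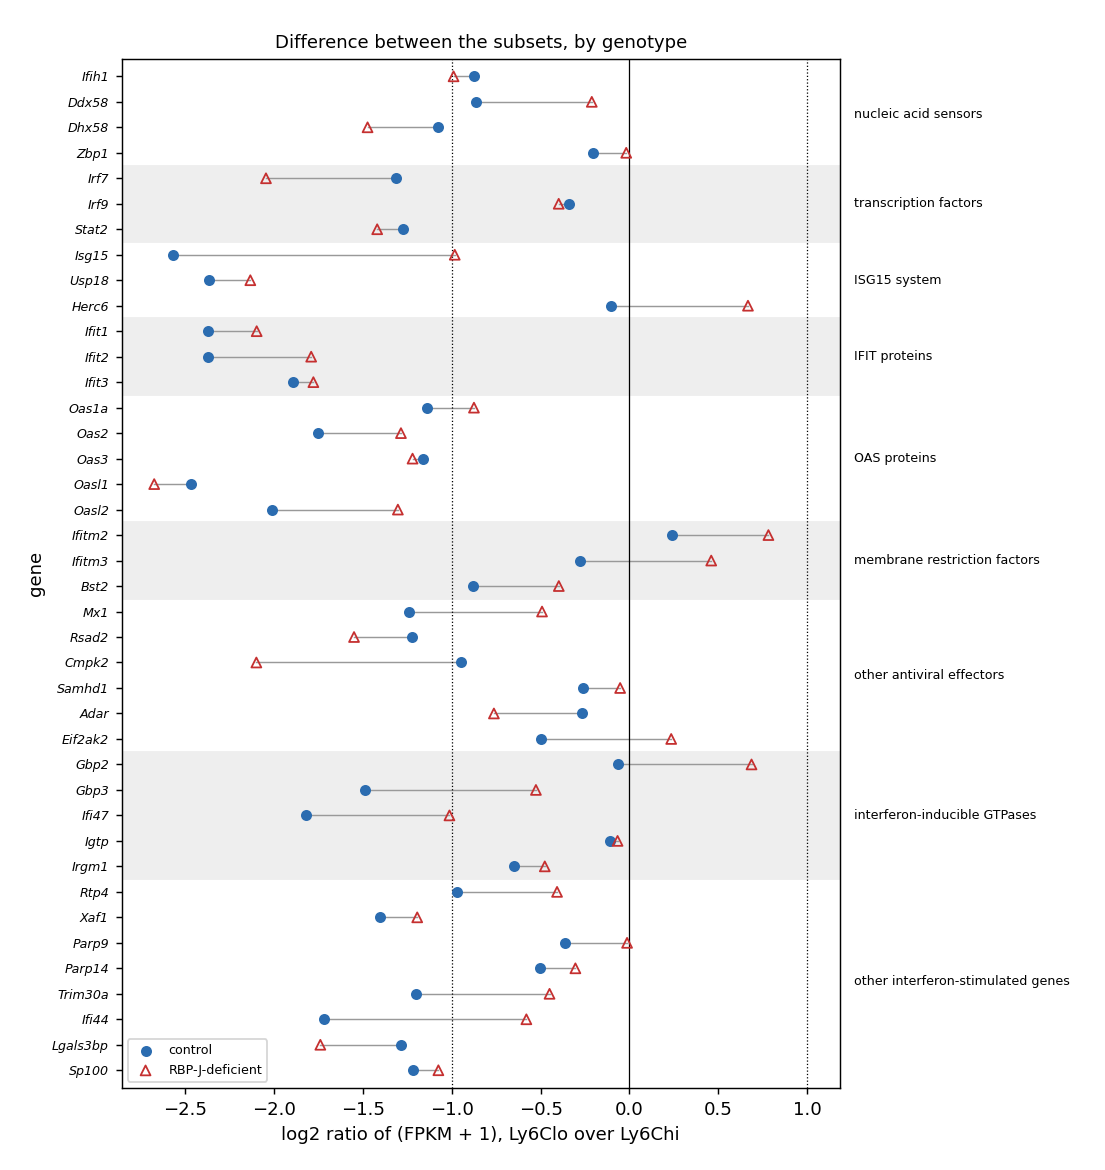
Log2 ratio of (FPKM + 1), Ly6Clo over Ly6Chi monocytes, for each interferon-stimulated gene in control (blue circles) and RBP-J-deficient mice (red triangles), with dotted lines at 2-fold. Circles of 39 genes and triangles of 35 lie left of 0, and 22 circles and 17 triangles lie left of the 2-fold line.

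The genotypes differed much less on these genes than the subsets did. Among Ly6Clo monocytes 2 of the 40 genes, Isg15 and Mx1, stood at least 2-fold above control when RBP-J was lost, and 3, Irf7, Cmpk2 and Adar, were at least 2-fold lower. Of all expressed genes 8.97% were at least 2-fold higher and 11.1% at least 2-fold lower, so neither share of the 40 genes (5% and 7.5%) was above the background. Among Ly6Chi monocytes 0 of the 40 genes was at least 2-fold higher or lower, where the background was 2.64% and 4.56%. At any size, 23 of the 40 genes were higher in RBP-J-deficient Ly6Clo cells (background 51.3%), and 31 were lower in RBP-J-deficient Ly6Chi cells (background 49.3%).

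The median log2 ratio of the 40 genes was 0.20 in Ly6Clo and -0.23 in Ly6Chi monocytes, beside 0.02 and 0.00 over the expressed genes. The direction of the Ly6Clo median depends on the scaling. It was -0.10 when each library was rescaled to TPM, which gives all libraries the same sum, and this lowered the median of all genes by 0.28, since the FPKM of the RBP-J-deficient Ly6Clo library sum to 885648 and those of the control to 717376. It was -0.02 when the trend with GC content was subtracted. In the same 2 settings the genes higher at any size in RBP-J-deficient Ly6Clo cells numbered 18 (background 38.6%) and 19 (47.1%), and those lower in Ly6Chi cells 34 (56.4%) and 31 (52.6%). The Ly6Chi median stayed negative in both, at -0.33 and -0.24.

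**Figure D3:**
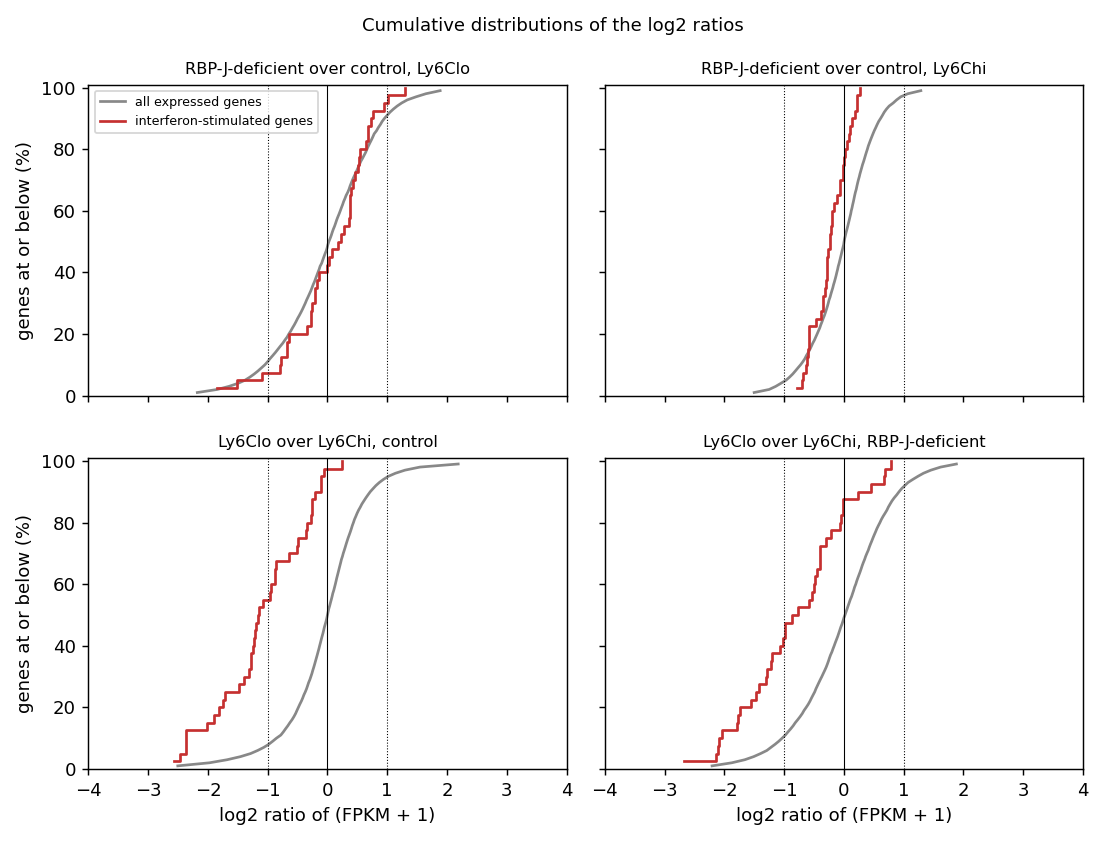
Cumulative share of the 40 interferon-stimulated genes (red steps) and of the 10240 expressed genes (grey) against the log2 ratio of (FPKM + 1) in the 4 comparisons, with dotted lines at 2-fold. The red curves lie left of the grey ones between the subsets (lower panels, medians -1.15 and -0.82), and close to the grey one between the genotypes in Ly6Clo cells (upper left), where the median of 0.20 turned to -0.10 with TPM and -0.02 after subtraction of the GC trend.

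The 3 transcription factors on the list, Irf7, Stat2 and Irf9, were lower without RBP-J in both subsets. Each has a GC content above 50%, and expressed genes of 50% and over had median genotype ratios of -0.26 in Ly6Clo and -0.15 in Ly6Chi cells. Of 8 other factors of the interferon pathway, 7 were lower and 1 higher in Ly6Clo cells, and 6 lower and 2 higher in Ly6Chi cells. The share of expressed genes lower in both subsets was not counted. Irf7, the factor that amplifies type I interferon production, was at 69.4, 23.5, 174 and 100.1 FPKM in control Ly6Clo, RBP-J-deficient Ly6Clo, control Ly6Chi and RBP-J-deficient Ly6Chi cells, an order kept for all values given below. Each RBP-J-deficient library was below its control, by 2.87-fold in Ly6Clo cells (log2 ratio -1.52) and with a log2 ratio of -0.79 in Ly6Chi cells. Stat2, a subunit of the complex that binds the response element, was at 8.86, 4.72, 22.8 and 14.3 FPKM, with genotype ratios of -0.78 and -0.64. Irf9, its DNA-binding subunit, was at 76.2, 62.5, 96.7 and 82.7 FPKM, with ratios of -0.28 and -0.22, so that all 3 factors had the same order of genotypes in the 2 subsets and only Irf7 was past 2-fold. Irf7 lies on chromosome 7 (141263183 to 141266424). Its difference between subsets was larger in RBP-J-deficient mice, at a log2 ratio of -2.04, than in control mice, at -1.31.

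The ISG15 system held the highest genotype ratio of the list. Isg15 encodes a ubiquitin-like protein that is attached to other proteins, and lies on chromosome 4 (156199424 to 156200818), next to the promoter stretch with 3 overlapping matches. Its level was 9.26, 24.3, 59.9 and 48.98 FPKM, so the control Ly6Clo library was far below the other 3. It was 2.47-fold higher in RBP-J-deficient than in control Ly6Clo cells (log2 ratio 1.30), and had a ratio of -0.29 in Ly6Chi cells. The control Ly6Clo level was 5.94-fold below the control Ly6Chi level, and the corresponding fold in RBP-J-deficient mice was 1.98. Usp18, the protease that removes ISG15 and restrains the receptor, did not share this pattern, with 19.6, 15.3, 105 and 70.3 FPKM, a genotype ratio of -0.34 in Ly6Clo and -0.58 in Ly6Chi cells. Herc6, the mouse ligase for ISG15, was at 11.6, 20.4, 12.5 and 12.5 FPKM and stood out only in the RBP-J-deficient Ly6Clo library, with a ratio of 0.77 there and of -0.0037 in Ly6Chi cells.

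All 3 IFIT genes, which encode binders of viral RNA and lie together on chromosome 19, were strongly tilted to Ly6Chi cells. Ifit1 was at 7.01, 9.40, 40.5 and 43.5 FPKM, Ifit2 at 7.70, 10.3, 44.1 and 38.2 and Ifit3 at 32.8, 36.98, 124 and 129. Each Ly6Clo value was below each Ly6Chi value, by 5.18-fold for Ifit1 and Ifit2 and 3.72-fold for Ifit3 in control mice, and by 4.28-fold, 3.46-fold and 3.43-fold in RBP-J-deficient mice. Between genotypes the largest of their ratios was 0.38, for Ifit2 in Ly6Clo cells. Ifit3b, a near-identical copy of Ifit3, was at 11.8, 4.59, 30.04 and 36.1 FPKM, with a genotype ratio of -1.20 in Ly6Clo cells where Ifit3 had 0.17. Reads can be divided between these copies, and the sum of the 2 genes was at 44.6, 41.6, 154 and 165 FPKM, a ratio of -0.10 between the Ly6Clo libraries.

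The OAS proteins sense double-stranded RNA, and the enzymes among them make the signal that activates RNase L. Oasl1 was the second lowest of the 40 genes, at 0.54, 0.32, 7.50 and 7.44 FPKM, with subset ratios of -2.47 in control cells and -2.67 without RBP-J that, at such low levels, depend strongly on the pseudocount. Oasl2, its neighbour on chromosome 5, was at 34.1, 49.97, 141 and 125 FPKM and had the highest genotype ratio of this group, 0.54 in Ly6Clo cells, beside -0.17 in Ly6Chi cells. Oas3 had the lowest in Ly6Clo cells, with 6.84, 4.01, 16.5 and 10.7 FPKM and ratios of -0.65 and -0.59. Oas2 had the lowest in Ly6Chi cells, with 5.14, 4.29, 19.7 and 11.9 FPKM and ratios of -0.22 and -0.68. Oas1a, at 73.1, 88.9, 162 and 164 FPKM, differed little between genotypes, with ratios of 0.28 and 0.01. All 5 genes were at least 2-fold lower in control Ly6Clo than in control Ly6Chi cells, and 4 of the 5 were in RBP-J-deficient mice, where Oas1a had -0.87. Oas1g, a paralog that resembles Oas1a closely, was at 14.01, 20.1, 40.1 and 45.6 FPKM, and reads of the pair may be divided.

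The membrane restriction factors include the 2 most abundant of the 40 genes and had the highest group median of the subset ratio, -0.28 in control cells and 0.46 without RBP-J. Ifitm3, which blocks the fusion of virus with the endosome, was at 4684, 7487, 5675 and 5442 FPKM, and Ifitm2 at 4882, 7809, 4127 and 4541. The RBP-J-deficient Ly6Clo library held the highest value of both, with a genotype ratio of 0.68 for each in Ly6Clo cells and of -0.06 and 0.14 in Ly6Chi cells. They share sequence with Ifitm6, which was at 2036, 2994, 1868 and 2209.9 FPKM and had ratios of 0.56 and 0.24. Bst2, or tetherin, which holds budding virus on the cell, was at 149, 206, 276 and 272 FPKM, with ratios of 0.46 and -0.02.

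The other antiviral effectors had the widest spread of genotype ratios in Ly6Clo cells, from -1.84 to 1.02. Cmpk2, a mitochondrial nucleotide kinase, had the lowest genotype ratio of the 40 genes in Ly6Clo cells, at 22.1, 5.44, 43.6 and 26.6 FPKM and 3.59-fold lower without RBP-J (log2 ratio -1.84), with -0.69 in Ly6Chi cells. Rsad2, or viperin, which lies beside Cmpk2 on chromosome 12 and makes a chain-terminating nucleotide, was at 6.25, 3.53, 15.9 and 12.2 FPKM, with ratios of -0.68 and -0.35. The RBP-J-deficient library was thus the lower one for both neighbours in both subsets. Adar, the adenosine deaminase that edits double-stranded RNA, was at 6.07, 2.32, 7.50 and 4.63 FPKM, 2.13-fold lower in RBP-J-deficient Ly6Clo cells (log2 ratio -1.09), with -0.59 in Ly6Chi cells. Mx1, a dynamin-like GTPase on chromosome 16, went the other way, at 9.94, 21.1, 24.8 and 30.1 FPKM and 2.02-fold higher (log2 ratio 1.02), with 0.27 in Ly6Chi cells. Eif2ak2, the kinase PKR that stops translation, was close to 2-fold higher, at 4.33, 9.31, 6.54 and 7.76 FPKM, with ratios of 0.95 and 0.22. Samhd1, which depletes deoxynucleotides, was abundant and even across the libraries, at 335, 442, 402 and 458 FPKM, with genotype ratios of 0.40 and 0.19.

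Of these 5 genes past 2-fold in Ly6Clo cells, Irf7, Cmpk2 and Isg15 stayed past it in every setting tried that kept a 2-fold threshold. Mx1 was under 2-fold with a pseudocount of 5 (log2 ratio 0.81), with TPM (0.74), after median centring (0.99) and after subtraction of the GC trend (0.82). Adar was under 2-fold with a pseudocount of 5 (-0.60) and after subtraction of the GC trend (-0.89).

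**Figure D4:**
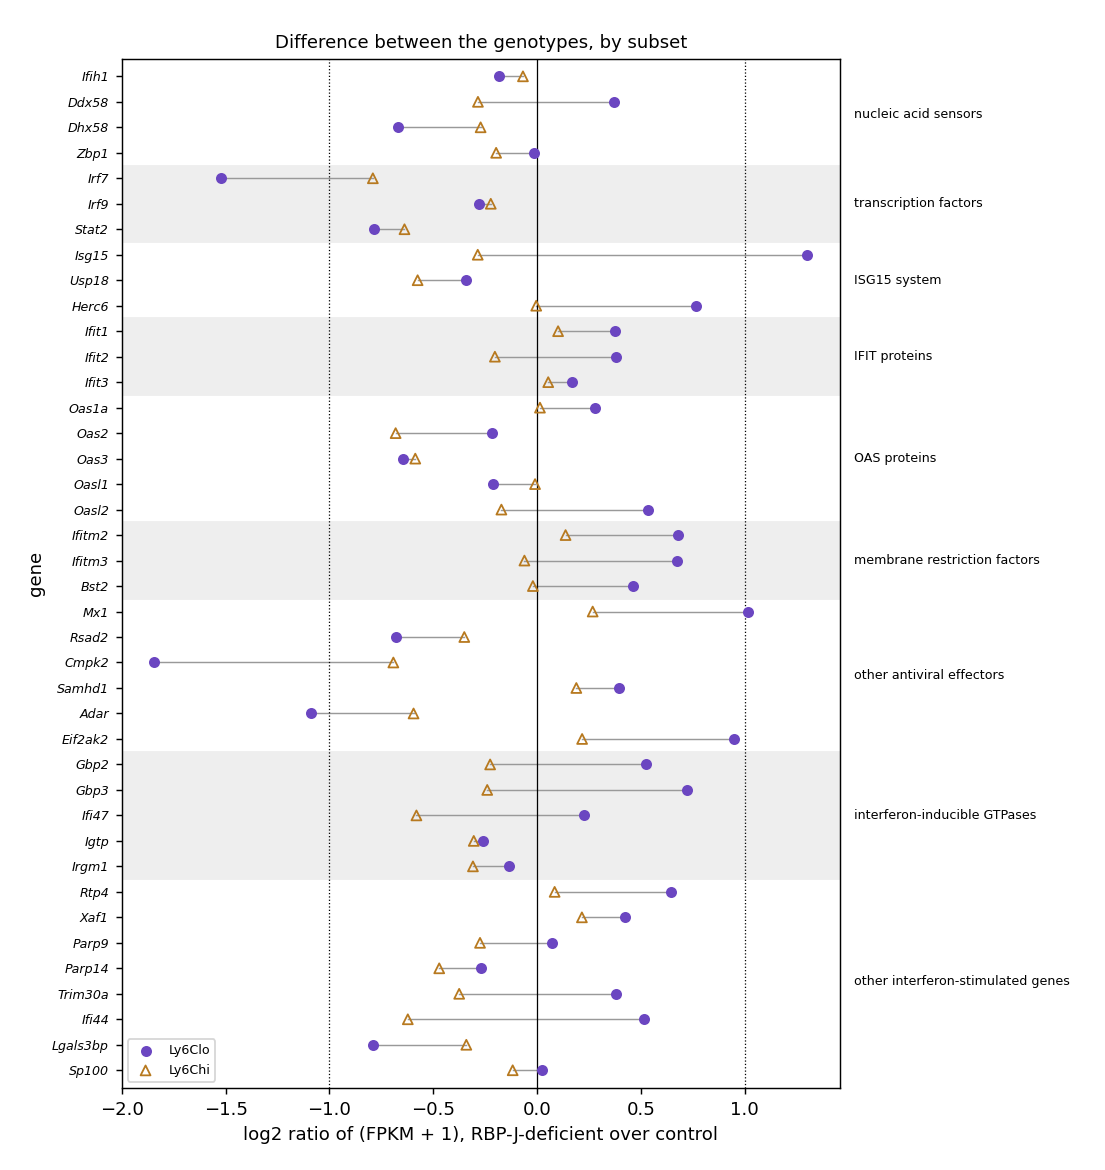
Genotype ratio (log2, RBP-J-deficient to control) for each interferon-stimulated gene in Ly6Clo (purple circles) and Ly6Chi monocytes (gold triangles), with dotted lines at 2-fold. In Ly6Clo cells Isg15 and Mx1 lie right of the upper line and Irf7, Cmpk2 and Adar left of the lower one, while the Ly6Chi values run from -0.79 to 0.27.

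Among the nucleic acid sensors no gene was past 2-fold between genotypes. Dhx58, which encodes the helicase LGP2, had the lowest ratio, at 17.7, 10.8, 38.5 and 31.7 FPKM with -0.67 in Ly6Clo and -0.27 in Ly6Chi cells. Ddx58, which encodes the RNA sensor RIG-I, had the highest in Ly6Clo cells, at 8.90, 11.8, 17.02 and 13.8 FPKM with 0.37 and -0.28. Ifih1, which encodes the sensor MDA5, was at 14.5, 12.6, 27.4 and 26.1 FPKM, and its genotype ratios of -0.18 and -0.07 were small beside its subset ratios of -0.88 and -0.99. Zbp1, a sensor of Z-form nucleic acid that can trigger cell death, was at 270.03, 268, 311 and 271 FPKM and differed little between any of the libraries.

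The 5 interferon-inducible GTPases among the 40 genes encode proteins that attack the vacuoles of intracellular pathogens, and none was past 2-fold between genotypes. In Ly6Chi cells their ratios lay between -0.58 and -0.23, below 0 as for 49.3% of the expressed genes. GTPases outside the 40 went both ways there, with 0.99 for Gbp6 and 0.40 for Tgtp2, but -0.65 for Irgm2 and -0.18 for Gbp9. In Ly6Clo cells Gbp3 had the highest ratio of the group, with 35.9, 59.8, 102 and 86.6 FPKM and a ratio of 0.72, and Igtp the lowest, with 92.9, 77.3, 100.2 and 80.96 FPKM and -0.26. Gbp2 was at 71.3, 103, 74.6 and 63.6 FPKM, with the highest value in RBP-J-deficient Ly6Clo cells (0.52) and subset ratios of -0.06 in control cells and 0.69 without RBP-J. Ifi47 had the lowest ratio in Ly6Chi cells, at 70.2, 82.2, 250.04 and 167 FPKM with 0.22 and -0.58. Its span in the table overlaps that of Tgtp2, at 83.2, 161, 54.1 and 71.7 FPKM, so its reads may be divided. Irgm1, which directs autophagy, was at 98.3, 89.3, 155 and 125 FPKM with ratios of -0.14 and -0.31.

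The other 8 interferon-stimulated genes had genotype ratios from -0.79 for Lgals3bp, which encodes a secreted glycoprotein, to 0.65 for Rtp4 in Ly6Clo cells, and from -0.62 for Ifi44 to 0.22 for Xaf1, a promoter of apoptosis, in Ly6Chi cells. Lgals3bp was at 53.2, 30.3, 131 and 103 FPKM and Rtp4 at 125, 196, 246 and 261, so the RBP-J-deficient library was the lower of the Ly6Clo pair for the first and the higher for the second. Xaf1 was at 22.2, 30.1, 60.3 and 70.2 FPKM, above its control in both subsets. Ifi44 was the lowest of the 40 genes, at 0.054, 0.51, 2.47 and 1.25 FPKM, and with Oasl1 it was 1 of the 2 genes that the deposited table marks as not tested for lack of reads between the Ly6Clo libraries. The remaining 4, Parp9, Parp14, Trim30a and Sp100, had ratios between -0.27 and 0.38 in Ly6Clo cells and between -0.47 and -0.12 in Ly6Chi cells. Sp100, a nuclear body protein, was at 118, 119.7, 275 and 253 FPKM, more than 2-fold lower in Ly6Clo than in Ly6Chi cells in both genotypes. The span of Parp9 overlaps that of its partner gene Dtx3l.

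The genotype ratios had opposite signs in the 2 subsets for 14 of the 40 genes (35%) and for 29.8% of the expressed genes. For 29 of the 40 genes the log2 ratio of Ly6Clo over Ly6Chi was higher in RBP-J-deficient than in control mice, where the background was 53.7%. This count is the same comparison as asking whether the genotype ratio was higher in Ly6Clo than in Ly6Chi cells, and with TPM it was 24 (background 43.3%). Isg15 differed the most between genotypes in this ratio, with -2.57 in control and -0.98 in deficient cells, and Cmpk2 the most in the other direction, with -0.95 and -2.10. The sums of the Ly6Chi markers given above, 74.6 FPKM in control and 575 in RBP-J-deficient Ly6Clo cells, were mostly Ccr2 and differed in the same direction. Their part in the result was not tested.

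GC content varied with the genotype ratio. Across the 10114 expressed genes with a known GC content of the longest transcript, Spearman's rho between GC content and the genotype ratio was -0.35 in Ly6Clo and -0.27 in Ly6Chi cells. Across the 40 genes, whose median GC content of 48.2% was near the 49.2% of the expressed genes, it was -0.30 and -0.09. These are descriptions across genes of the same libraries. In Ly6Clo cells the 16 interferon-stimulated genes with a GC content of 50% and over had a median ratio of -0.25 (all such genes -0.26), the 16 between 45 and 50% had 0.30 (0.13) and the 8 under 45% had 0.38 (0.33). Isg15, at 52.8% GC, and Cmpk2, at 45.8%, differed from genes of like GC content, and their Ly6Clo ratios were 1.46 and -2.13 after the trend was subtracted. Irf7 (55.4%) and Adar (53.4%) are GC-rich, and GC-rich genes were in general low in the RBP-J-deficient library. Both nevertheless lay below the middle 50% of genes of like GC content, and had -1.20 and -0.89 after the trend was subtracted. Mx1 (47.3%) lay above the middle 50% and had 0.82 after it.

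**Figure D5:**
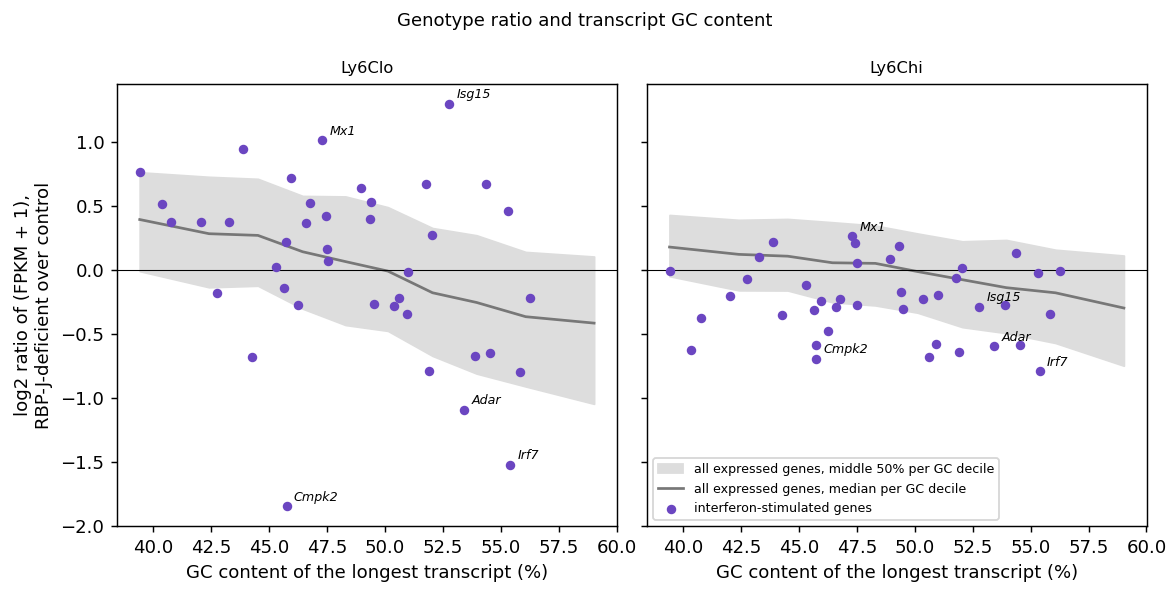
Genotype ratio (log2, RBP-J-deficient to control) against the GC content of the longest transcript (%) for the 40 interferon-stimulated genes (purple points) in Ly6Clo and Ly6Chi monocytes, with the median (grey line) and middle 50% (grey band) of the expressed genes in each GC decile. The grey line slopes down in both panels. In Ly6Clo cells Isg15 and Mx1 lie above the band, and Irf7, Cmpk2 and Adar below it.

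The genes with a match to the response element in the promoter were not lower in Ly6Clo cells than the genes without. In the control pair the 18 genes with a match had a median subset ratio of -1.01, with 9 at least 2-fold lower in Ly6Clo cells, and the 14 without had -1.30, with 9. In the RBP-J-deficient pair the medians were -0.50, with 5 genes at least 2-fold lower, and -1.13, with 9 (background 10.6%). Between genotypes in Ly6Clo cells the medians were 0.37 and 0.12. Irf7, Cmpk2 and Adar had no match in the window, and Isg15 had 3. The Ifit1 and Ifitm2 stretches printed above each carry a match, and these genes had subset ratios of -2.37 and 0.24 in control mice.

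Upstream of these genes, the pathway was measured with a list of 53 genes, all found and 35 of them expressed. Of its 15 interferon ligands, 14 are listed at 0 FPKM in all 4 libraries. Ifnar1, a chain of the type I receptor, was at 27.3, 96.1, 28.2 and 34.1 FPKM, so the RBP-J-deficient Ly6Clo library was far above the other 3 (log2 ratio 1.78, with 0.27 in Ly6Chi cells). Ifnar2, the other chain, was at 115, 155, 85.5 and 85.1 FPKM, with ratios of 0.43 and -0.01. Irf1, a transcription factor that interferon induces, was at 89.05, 69.1, 69.2 and 54.6 FPKM (-0.36 and -0.34).

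Among the 7 feedback inhibitors, Socs1 and Socs3 were low in both RBP-J-deficient libraries, while the other 5 had ratios from -0.60 to 0.58 in Ly6Clo cells. Socs1 was at 6.05, 0.96, 9.92 and 2.68 FPKM, with ratios of -1.85 and -1.57, and Socs3 at 33.9, 6.35, 25.8 and 8.67, with -2.25 and -1.47. Both encode proteins that block JAK kinases, and both are GC-rich, at 58.8% and 58.7%. Over the 35 expressed pathway genes 2 were at least 2-fold higher and 8 at least 2-fold lower in RBP-J-deficient Ly6Clo cells (background 8.97% and 11.1%), with a median of -0.25. In Ly6Chi cells 1 was higher and 3 were lower (background 2.64% and 4.56%), with a median of -0.17. Besides Ifnar1, the 2 included Irf2bp2, a corepressor, at 1.09, and the 8 included Stat3, which transmits interleukin signals, at -1.71.

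The sorted cells could hold other blood cells that express interferon-stimulated genes. Of the 6 markers of plasmacytoid dendritic cells, the main makers of type I interferon, Siglech was at 0.14 FPKM in control Ly6Clo cells and at 0 in the other 3 libraries. Cox6a2 was at 1.53, 0.22, 0 and 0.46 FPKM, lower without RBP-J in Ly6Clo cells, and Ccr9 went the other way there, at 0.11, 0.33, 0 and 0.016. Klk1 was at 0.41 FPKM in control Ly6Chi cells only. The list summed to 12.4, 11.6, 22.4 and 23.0 FPKM, most of it Tcf4 and Bcl11a. The 6 T cell markers summed to at most 1.89 FPKM and the 6 NK cell markers to at most 6.72 in any library. The 5 B cell markers summed to 68.0, 102, 26.2 and 47.1 FPKM, most of it Cd79b, and between the Ly6Clo libraries 1 of them, Cd79b, was at least 2-fold higher without RBP-J and 3, Cd79a, Ms4a1 and Cd22, were at least 2-fold lower. The 6 neutrophil markers found summed to 234, 150, 1292 and 1019, most of it S100a8 and S100a9, which monocytes also express. Their members did not go one way between the Ly6Chi libraries. Camp and Ngp were at 0 in both control libraries and at 5.52 and 4.87 FPKM in RBP-J-deficient Ly6Chi cells. Ltf was at 0 in both Ly6Chi libraries, and Cxcr2, S100a8 and S100a9 were lower there without RBP-J (log2 ratios -0.54, -0.33 and -0.48). The 4 platelet markers summed to 122, 121, 340 and 285, and the 3 erythroid markers found to 18.5, 56.2, 36.0 and 63.8. The neutrophil and platelet sums were higher in Ly6Chi cells, as were most of the 40 genes, and their part in the subset difference was not tested.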

How the data were processed

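RNA of sorted Ly6Chi and Ly6Clo blood monocytes, from mice with and without RBP-J, gave 1 library per group, and groups were taken from the titles and genotype labels. The values are FPKM per gene that the authors deposited in a table laid out as pairwise library comparisons, and read counts were not analysed here, so depth is unknown and no counting interval is given. The submitters' processing notes name CASAVA 1.8, TopHat2 2.1.0, Cufflinks 2.2.1 and the build mm10, and the gene annotation is not given in the sources used here. The table also holds the authors' fold changes, test statistics, p-values and q-values for the library pairs, and none of these was used.

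Ratios were log2 of (FPKM + 1), and a gene was expressed at 1 FPKM or more in at least 1 of the 4 libraries. Lists were described by their median and by counts past 2-fold, beside the same over all expressed genes. The GC trend was a lowess fit (fraction 0.3, 3 robustness iterations) of the ratio on the longest transcript's GC content, fitted on the 6330 genes whose mean FPKM reached 5 and whose GC content was known. Python 3.11.15, numpy 2.4.6, pandas 2.3.3, statsmodels 0.14.6 and matplotlib 3.10.9 were used, and the scripts were tested on simulated data. The 40 genes, the other gene lists and the alternatives were chosen with earlier results of these data known. Values in all libraries were given for genes past 2-fold between genotypes, for the 3 highest by mean FPKM and for the extreme genotype ratios of each role group, and other genes of interest were added after their values were seen. Of other lists, at most the 3 highest and lowest ratios were named, plus Ifnar1, Ifnar2, Irf1 and Socs1, and 1 further gene of this rule is not reported here. The alternatives were pseudocounts of 0.1 and 5, no filter, at least 1 FPKM in all 4 libraries, TPM, median centring, the GC trend, a threshold of 1.5-fold and, added after seeing the data, a mean of at least 10 FPKM.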

Additional observations from a re-analysis of the deposited data

Results flagged for a closer look

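The median log2 ratio of the 40 interferon-stimulated genes between genotypes was 0.20 in Ly6Clo and -0.23 in Ly6Chi monocytes, so the 2 subsets differed in sign, but the Ly6Clo median was -0.10 with TPM and -0.023 after subtraction of the GC trend. No test of this difference was made, since each group is 1 library. Isg15 had a genotype ratio of 1.30 in Ly6Clo and -0.29 in Ly6Chi cells, and the difference between subsets was likewise not tested. Its Ly6Clo ratio lay between 1.03 and 1.46 over the alternatives.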

How the results depend on the processing

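No paired analysis was possible because each group is 1 library without a replicate number, and for the same reason no replicate could be left out. Of 104 alternative values for the whole list, 15 moved, and 55 of the 1248 for single genes did. No value past 2-fold changed sign. For the genes at least 2-fold higher in RBP-J-deficient Ly6Clo cells (2), the count was 4 at pseudocount 0.1 (background 12.7%) and 1 at pseudocount 5 (4.99%). The count was also 1 with TPM (5.24%), median centring (8.47%) or the GC trend subtracted (7.9%), and was 8 at 1.5-fold (23%). For those lower (3) it was 5 with TPM (background 17.7%) and 8 at 1.5-fold (22%). In Ly6Chi cells 7 genes were lower at 1.5-fold (14.3%). Between the subsets in RBP-J-deficient mice 1 gene was at least 2-fold higher in Ly6Clo cells after the GC trend was subtracted (background 7.36%), and 3 were at 1.5-fold (20.7%). The genotype median in Ly6Clo cells (0.20) was -0.10 with TPM and -0.023 with the GC trend subtracted. The subset median in control mice (-1.15) was -0.91 with a pseudocount of 5, and that in RBP-J-deficient mice (-0.82) was -1.03 with TPM. TPM lowered the median of all genes by 0.28 in the Ly6Clo and 0.10 in the Ly6Chi genotype comparison, and by 0.20 between the RBP-J-deficient subsets. The cause of the GC trend was not tested. The precision of single values cannot be stated, because neither replicates nor read counts were analysed here.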

Other observations

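A list of 86 further interferon-stimulated genes, of which 84 were found and 78 expressed, was also lower in Ly6Clo than in Ly6Chi monocytes. In control mice 22 were at least 2-fold lower and 2 at least 2-fold higher (7.75% and 5.21% of all expressed genes), with a median log2 ratio of -0.57, and in RBP-J-deficient mice 21 were lower and 5 higher (10.6% and 8.41%), with a median of -0.50. Between genotypes 10 were at least 2-fold higher and 8 at least 2-fold lower in RBP-J-deficient Ly6Clo cells (median 0.23, background 8.97% and 11.1%), and 2 were higher and 0 lower in Ly6Chi cells (median -0.14, background 2.64% and 4.56%).

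The highest genotype ratios in Ly6Clo cells were those of Trim21, an antibody receptor in the cytosol, Ifi205 and Casp4. Trim21 was at 0.51, 4.59, 0.12 and 6.62 FPKM in control Ly6Clo, RBP-J-deficient Ly6Clo, control Ly6Chi and RBP-J-deficient Ly6Chi cells, so both RBP-J-deficient libraries were above both controls (log2 ratios 1.89 and 2.76). Ifi205, of the IFI200 family of DNA-binding proteins, was at 12.1, 38.6, 153 and 133 FPKM, with 1.60 in Ly6Clo and -0.19 in Ly6Chi cells. Casp4, an inflammatory caspase, was at 41.2, 121, 72.1 and 107 FPKM, with 1.54 and 0.57. The lowest were Slfn2, at 463, 135, 642 and 352 FPKM (-1.77 and -0.87), Tap2, a peptide transporter subunit for antigen presentation, at 62.96, 18.7, 51.7 and 29.3 FPKM (-1.70 and -0.80), and Ogfr, at 24.5, 9.69, 61.9 and 37.96 FPKM (-1.26 and -0.69). Ifi205 lay in the order of the subset markers, with the RBP-J-deficient Ly6Clo library between control Ly6Clo and both Ly6Chi libraries, and the part of the marker levels in this was not tested.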
